A study of Mus musculus with 22 samples.

Results

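Type I interferon-stimulated antiviral genes were followed in mouse microglia given lipopolysaccharide (LPS), part of the outer membrane of Gram-negative bacteria and a strong activator of these cells. The set was a list of 41 named genes, defined by gene name, with no measured value in the rule. Of these, 39 were followed in the expression table of 15725 gene symbols, and all 39 passed the filter on low values (at least 1 FPKM, fragments per kilobase of transcript, scaled to the mapped fragments of the library, in at least 3 libraries) that left 11070 genes for testing. Mx1 and Mx2 are not analysed here.

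The 22 RNA sequencing libraries came from primary microglia of C57BL/6J mice, grown as mixed glia from the cortex of newborns and shaken off. All 5 groups received 100 ng/ml LPS for 24 h, and no culture without LPS was analysed here. The groups were LPS alone (3 libraries), LPS with 10 nM Baf A1 (5 libraries), LPS with 50 nM CLA (6 libraries), LPS+dNC (3 libraries) and LPS+siAtg5 (5 libraries). Baf A1 is bafilomycin A1, which blocks the proton pump of lysosomes and so the last step of autophagy. The siAtg5 cells had first been transfected for 48 h with 50 nM siRNA against Atg5, a gene needed to form autophagosomes. The labels spell out neither CLA nor dNC, and the transfection protocol names NC siRNAs as the counterpart of the Atg5 siRNA. The series set LPS+Baf A1 and LPS+CLA against LPS, and LPS+siAtg5 against LPS+dNC. No label states that the libraries of a group are separate cultures. All p-values here therefore rest on the spread among these libraries alone, and that spread may be technical.

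In cells that sense LPS through TLR4, the adaptor TRIF leads to activation of IRF3 and to secretion of interferon beta. Interferon beta binds the receptor IFNAR1 and IFNAR2 on the same and neighbouring cells, and the kinases JAK1 and TYK2 then activate transcription factors such as STAT2. With IRF9, STAT2 is part of a complex that binds a short DNA element, the interferon-stimulated response element, in front of many antiviral genes. Microglia run this programme in viral infection, injury, ageing and demyelination.

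The response element was looked for in RefSeq promoter windows (GRCm38.p6), which ran from 250 bases before to 50 bases after a gene's start and held 31 of the 39 genes. The letters searched were GAAA, any 2 bases and GAAA again, on both strands, and overlapping matches were counted separately. At least 1 match was present in 16 of the 31 genes (51.6%), against 370 of 8990 tested genes with a window (4.12%) and 1131 of 32851 windows in all (3.44%). A match is a description of the sequence and not a site shown to be bound. The stretches below belong to genes that carry the results. These are the interferon-induced Ifit genes with a match, Rsad2 and Ddx60, which fell by differing amounts in all 3 comparisons. Oas1a and Oas1g, which cannot be fully told apart, Isg15 and Stat2 are shown too. Bst2, which went the other way in 2 comparisons, is the last. The stretches are written 5′ to 3′ in the direction of the gene with the match in capitals. Where the match lies on the opposite strand, its reverse complement is seen.
Ifit1: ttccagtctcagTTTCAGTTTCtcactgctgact
Ifit3: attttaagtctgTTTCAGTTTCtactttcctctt
Ifit3b: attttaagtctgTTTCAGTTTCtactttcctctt
Ifit1bl1: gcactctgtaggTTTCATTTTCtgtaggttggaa
Rsad2: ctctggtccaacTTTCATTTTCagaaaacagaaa
Ddx60: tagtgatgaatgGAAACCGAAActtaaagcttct
Oas1a: tctcgggaaatgGAAACTGAAAatct
Oas1g: tctcgggaaatgGAAACTGAAAat
Isg15: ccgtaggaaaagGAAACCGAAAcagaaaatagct
Stat2: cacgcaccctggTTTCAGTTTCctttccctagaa
Bst2: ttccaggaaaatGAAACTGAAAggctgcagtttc

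The stretches of Ifit1 (chr19:34640792-34640825, plus strand), Ifit3 (chr19:34583395-34583428, plus strand), Ifit3b (chr19:34607791-34607824, plus strand) and Ifit1bl1 (chr19:34602051-34602084, minus strand) lie in 1 gene cluster. Those of Oas1a (chr5:120907526-120907551) and Oas1g (chr5:120887614-120887637) are on the minus strand of another. The others are at chr12:26456551-26456584 (Rsad2, minus strand), chr8:61928022-61928055 (Ddx60, plus strand), chr4:156200869-156200902 (Isg15, minus strand), chr10:128270264-128270297 (Stat2, plus strand) and chr8:71537575-71537608 (Bst2, minus strand). The Ifit3 and Ifit3b stretches are the same letters. The matches end between 2 bases (Oas1g) and 212 bases (Stat2) before the gene's start. No match was found in the windows of Ifit2, Cmpk2, Irf7, Irf9, Oasl1, Oasl2, Isg20, Phf11c and Phf11d, among others, which says only that these letters are not in those windows.

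Read counts were not used here, so the depth behind each value is unknown. Atg5 itself was at 12.6 to 13.5 FPKM in the LPS+siAtg5 libraries and at 21.4 to 24.3 FPKM in the LPS+dNC libraries. The LPS+siAtg5 libraries also stood apart in breadth: 10752 to 10908 genes reached 1 FPKM there, against 9112 to 9571 in the other groups, and the median log2 change of all tested genes from LPS+dNC was 0.34. Their summed level of 15 astrocyte markers was 324 to 376 FPKM, against 5.7 to 27.5 in all other libraries, and that of 10 neuron markers was 59.8 to 74.8 FPKM against 0.9 to 17.5. The 12 microglia markers summed to 2404 to 2652 FPKM with LPS+dNC and to 3262 to 4310 FPKM in the other groups, and Cx3cr1, a microglial receptor, averaged 0.177 FPKM with LPS+dNC and 13.9 FPKM with LPS+siAtg5. Neutrophil and lymphocyte markers (3 genes) summed to 130 to 633 FPKM with LPS+dNC and to at most 34.6 FPKM elsewhere. Within their groups, LPS replicate 3, LPS+dNC replicate 1 and LPS+CLA replicate 2 lay farther from their mates than other libraries did.

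The interferon-stimulated genes were among the abundant transcripts of the LPS cultures, and most were lower with Baf A1, with CLA and with siAtg5. Averaged over all libraries, their median level was 176 FPKM against 9.22 FPKM for all tested genes. Irf7 was highest at 1368 FPKM and Phf11c lowest at 3.33 FPKM, and the next lowest was Ifi44 at 26.5 FPKM. Their levels summed to 3.29% to 3.32% of all FPKM with LPS and to 3.06% to 3.36% with LPS+dNC. The share was 1.79% to 1.95% with LPS+Baf A1, 1.73% to 1.93% with LPS+siAtg5 and 1.43% to 1.58% with LPS+CLA. No library of these 3 groups reached the level of any LPS or LPS+dNC library. In bulk RNA, fewer cells of a type and less RNA per cell cannot be told apart.

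**Figure D1:**
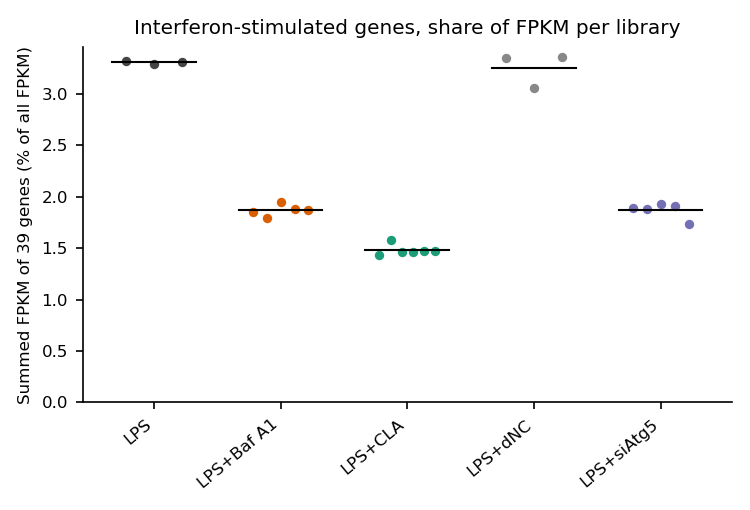
Summed FPKM of 39 interferon-stimulated genes as a percentage of all FPKM in each library (y axis), by group (x axis). Each point is a library and the line is the group mean. The LPS and LPS+dNC libraries lie at 3.06% to 3.36%, and all libraries of the other 3 groups lie at or below 1.95%.

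With Baf A1, 36 of the 39 genes fell and 1 rose against LPS (limma, adjusted p under 0.05 over all tested genes), where 25.1% of all tested genes fell and 32.7% rose. The median log2 change was -0.69, beside 0.04 for all tested genes, and 12 genes fell 2-fold or more, which 2.01% of tested genes did. In 37 of the 39, every Baf A1 library was below every LPS library, as in 21.9% of tested genes.

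With siAtg5, 37 of the 39 genes fell and 2 rose against LPS+dNC, where 21.6% of all tested genes fell and 59.6% rose. The median log2 change was -0.78, which is -1.12 relative to the median of all tested genes, and 16 genes fell 2-fold or more (4.79% of tested genes). With quantile normalization 32 genes fell (39.4% of tested genes, with 38% rising) and the median relative to all tested genes was -0.6. With median-of-ratios scaling 37 fell (36% of tested genes, with 42.4% rising). In 37 genes all siAtg5 libraries were below all LPS+dNC libraries, as in 19.8% of tested genes. The astrocyte and neuron markers given above moved with this comparison (13 of 13 and 7 of 7 tested markers rose). So did 6 of 8 tested fibroblast, mural and endothelial markers (sums of 93.7 to 126 FPKM against 7.73 to 17.6 FPKM), 6 of 7 oligodendrocyte lineage markers (102 to 107 against 79.0 to 92.8 FPKM) and 10 of 12 microglia markers. Of the neutrophil markers, S100a8 fell (means of 27.9 against 357 FPKM) and Camp rose (0.866 against 0.277 FPKM). The part of all these in the result was not tested.

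With CLA, 38 of the 39 genes fell and 1 rose against LPS, where 22.6% of all tested genes fell and 40.4% rose (31.2% and 30.4% with median-of-ratios scaling, 28.4% and 33.4% with quantile normalization). The median log2 change was -0.91, beside 0.09 for all tested genes, and 16 genes fell 2-fold or more (3.22% of tested genes). In 38 genes every CLA library was below every LPS library, as in 18.9% of tested genes. The Baf A1 and CLA comparisons share their LPS libraries, so their values are given side by side and not as independent findings. Markers of border macrophages and monocytes (8 genes) summed to 188 to 245 FPKM with Baf A1 and 164 to 288 FPKM with CLA, against 106 to 120 FPKM with LPS. That sum is mostly Pf4 (means of 209, 244 and 97.7 FPKM). Of 5 tested markers, Pf4 rose and Mrc1 fell with Baf A1, and with CLA Pf4 and Cbr2 rose while Mrc1 and Ly6c2 fell. Markers of other cell types moved too. Of 7 tested neuron markers, 4 fell with Baf A1 and 7 with CLA. Of 8 fibroblast, mural and endothelial markers, 4 rose with Baf A1 and 4 with CLA. Of 12 microglia markers, 5 rose and 5 fell with Baf A1, and 4 rose and 3 fell with CLA. Of all tested genes, 32.7% rose and 25.1% fell with Baf A1. The part of all these markers in the changes was not tested.

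In all, 34 of the 39 genes fell in each of the 3 comparisons, as 7.5% of tested genes did. The 5 that did not were Irf7, Dhx58, Xaf1, Bst2 and Phf11d. A 2-fold or larger fall in all 3 was seen in 9 genes, namely Ifit1, Ifit2, Ifit1bl1, Rsad2, Cmpk2, Oas2, Ifih1, Ddx60 and Phf11c, and in 0.75% of tested genes. The siAtg5 falls in this count are measured from LPS+dNC, and against LPS alone Ifih1 and Ddx60 fell less than 2-fold. By group means, CLA was the lowest group in 27 genes (17.7% of tested genes), siAtg5 in 7 (6.19%), Baf A1 in 4 (18.9%) and LPS+dNC in 1 (32.4%). LPS was the highest in 20 (11.0%) and LPS+dNC in 19 (20.1%). These ranks are of FPKM without further scaling. Against LPS, the median log2 change of the 39 genes was -0.68 with siAtg5 and -0.91 with CLA. With median-of-ratios scaling these medians were -1.03 and -1.05, so the order of siAtg5 and CLA depends on the scaling.

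**Figure D2:**
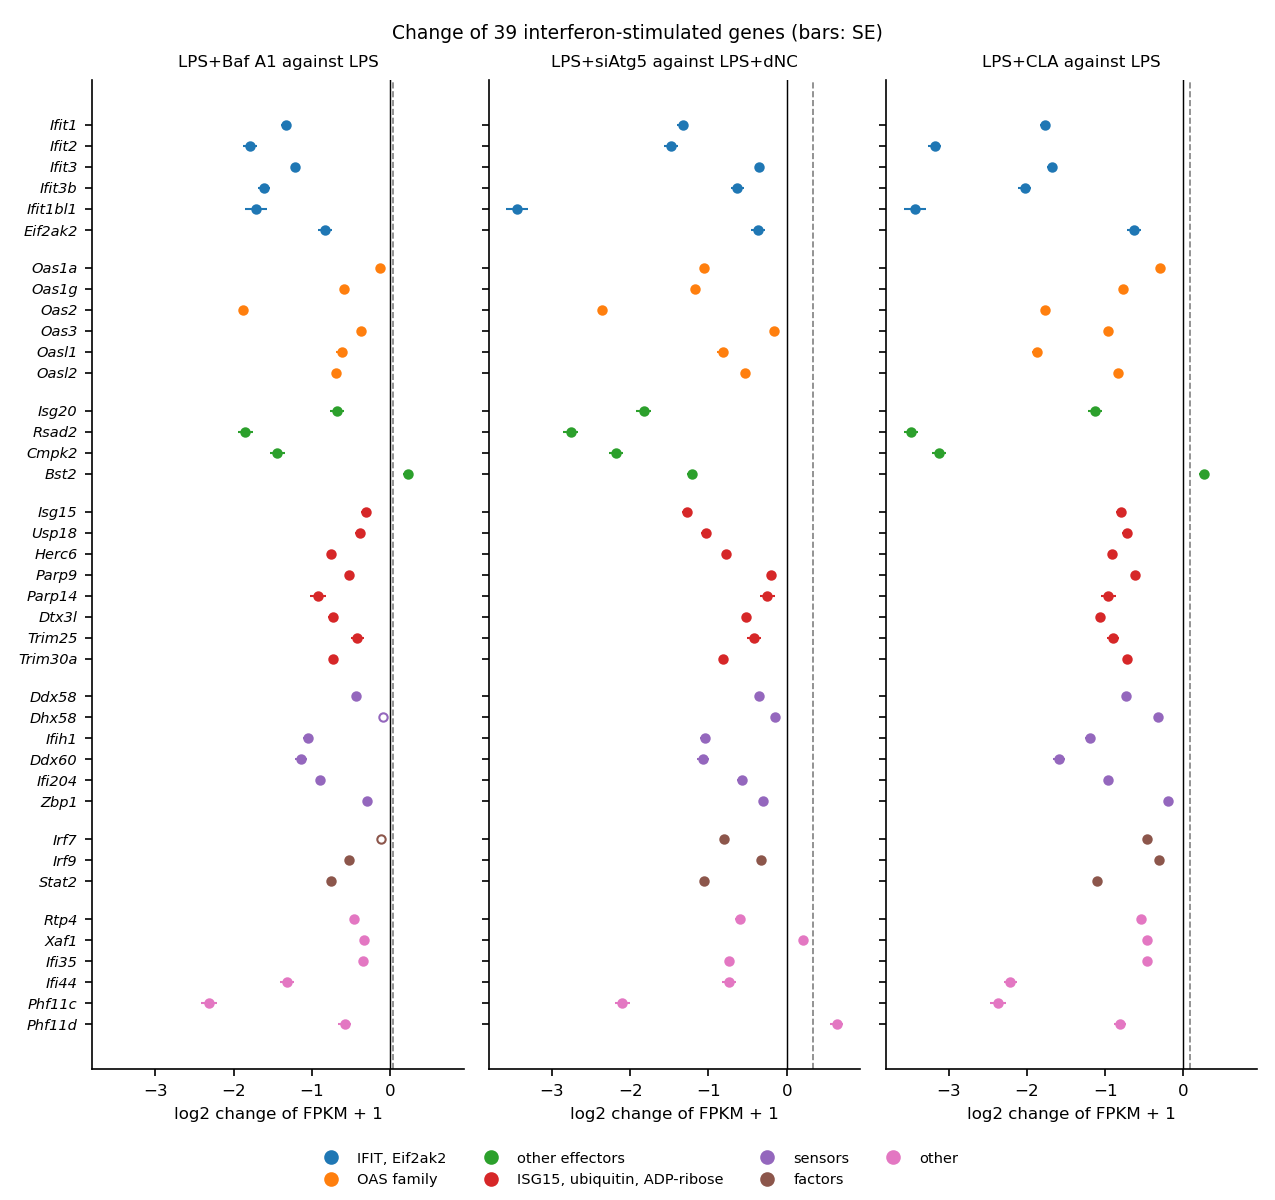
Log2 change of FPKM + 1 (x axis) with its standard error for each of the 39 genes (y axis), coloured by role, in the 3 comparisons. Filled points passed the test, open points did not, the solid line is 0 and the dashed line is the median of all tested genes. Nearly all points lie left of both lines, with Bst2 to the right with Baf A1 and CLA, and Xaf1 and Phf11d to the right of 0 with siAtg5.

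The IFIT proteins bind viral RNA and hold back its translation, and Eif2ak2 (PKR) halts translation when it binds double-stranded RNA. All 6 genes of this group fell in all 3 comparisons, with median log2 changes of -1.47 (Baf A1), -0.98 (siAtg5) and -1.9 (CLA). Their summed level was 3651 to 4031 FPKM with LPS, 1285 to 1473 FPKM with Baf A1 and 819 to 967 FPKM with CLA.

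Ifit2 (chromosome 19, 34550694 to 34576419, GRCm38) was at 966, 905 and 889.8 FPKM with LPS and at 266, 237, 291, 272 and 267 FPKM with Baf A1. With CLA the lowest, median and highest library were at 94.1, 98.7 and 118 FPKM. The ranges did not overlap, and the mean was 71.0% lower with Baf A1 (log2 change -1.79, SE 0.086, limma adjusted p = 1.62e-13) and 89.0% lower with CLA (-3.18, SE 0.084, 3.64e-18). In the siRNA groups Ifit2 was at 854, 648 and 781 FPKM with LPS+dNC and at 273, 278, 285, 292 and 229.9 FPKM with LPS+siAtg5. There too every siAtg5 library was below every control, by 1.48 on the log2 scale in the means (change -1.48, SE 0.086).

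Ifit1bl1 (chromosome 19, 34592891 to 34601956), a mouse relative of Ifit1, showed the largest fall of the group in the siAtg5 and CLA comparisons. It was at 781, 666 and 919 FPKM with LPS+dNC and at 74.6, 72.8, 82.5, 75.7 and 52.4 FPKM with LPS+siAtg5 (log2 change -3.45, SE 0.14, limma adjusted p = 1.9e-15). With LPS it was at 519, 538 and 707 FPKM, with Baf A1 at 169, 158, 199, 182 and 179 FPKM (-1.71, SE 0.14), and with CLA the lowest, median and highest library were at 46.6, 51.3 and 70.7 FPKM (-3.43, SE 0.14). The siAtg5 and CLA means were each 90.9% below their controls.

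Ifit3 (chromosome 19, 34583531 to 34588731), the most abundant IFIT gene, was at 1209.7, 1217 and 1366 FPKM with LPS and at 538, 518, 576, 549 and 544 FPKM with Baf A1. With CLA the lowest, median and highest library were at 381, 385 and 417 FPKM. Both groups were wholly below LPS, with log2 changes of -1.21 (SE 0.061) and -1.68 (SE 0.059). The siAtg5 libraries, at 748, 755, 761, 778 and 641 FPKM, lay below the LPS+dNC libraries at 916, 878 and 1018 FPKM by a smaller step (-0.35, SE 0.061, limma adjusted p = 1.8e-05). That call was lost with quantile normalization, where the change was 0.08 (adjusted p = 0.188). Of the 50-base words of Ifit3, 51.2% also occur in another gene, mostly Ifit3b (45.0% of whose words are shared), so how reads were divided between these 2 genes is uncertain. Ifit3b fell by 1.61, 0.63 and 2.03 on the log2 scale with Baf A1, siAtg5 and CLA, Ifit1 by 1.33, 1.33 and 1.77, and Eif2ak2 by 0.83, 0.37 and 0.63.

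The 2′-5′-oligoadenylate synthetases make a short RNA messenger of antiviral defence, and Oasl1 and Oasl2 are their relatives. All 6 fell in the 3 comparisons, but by very different amounts. Oas2 (chromosome 5, 120730333 to 120749853) fell most with Baf A1 and siAtg5. It was at 110.1, 112 and 103 FPKM with LPS, at 28.4, 27.7, 28.8, 28.5 and 29.6 FPKM with Baf A1, and at 28.7, 31.6 and 32.1 FPKM in the lowest, median and highest CLA library. With LPS+dNC it was at 162, 174 and 172 FPKM, and with LPS+siAtg5 at 33.8, 31.7, 33, 31.4 and 30.4 FPKM. The 3 treated groups thus lay between 27.7 and 33.8 FPKM, far below both controls, with log2 changes of -1.88 (Baf A1, SE 0.046, limma adjusted p = 2e-18), -2.36 (siAtg5, SE 0.046, 2e-21) and -1.77 (CLA, SE 0.044, 3e-18).

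Oasl1 (chromosome 5, 114923240 to 114937915), which restrains translation of Irf7, fell most with CLA. It was at 353, 361 and 446 FPKM with LPS, at 237, 246, 258, 257 and 252 FPKM with Baf A1, and at 98.3, 102 and 119 FPKM in the lowest, median and highest CLA library. The LPS+dNC libraries were at 397, 340.4 and 352 FPKM and the siAtg5 libraries at 204, 207, 214, 199 and 200.1 FPKM. No treated library overlapped its controls, and the log2 changes were -0.62, -1.87 and -0.82 (SE 0.069, 0.067 and 0.069) with Baf A1, CLA and siAtg5.

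Oas1a (chromosome 5, 120896256 to 120907521), the most abundant of the family, moved little with Baf A1. It was at 352, 363 and 396 FPKM with LPS, at 341, 334, 348, 342 and 329.7 FPKM with Baf A1 (log2 change -0.13, SE 0.047, limma adjusted p = 0.0269), and at 285, 295 and 332 FPKM in the lowest, median and highest CLA library (-0.3, SE 0.046). That small fall missed the threshold when LPS replicate 3 (-0.08, adjusted p = 0.184) or LPS+Baf A1 replicate 5 (adjusted p = 0.0568) was left out, and with the replicate block (adjusted p = 0.0675). With LPS+dNC it was at 579, 607 and 622 FPKM, far above the siAtg5 libraries at 281, 291, 286, 298 and 284 FPKM (-1.06, SE 0.047). Oas1a shares 57.6% of its 50-base words with other genes, chiefly Oas1g (45.7% of whose own words are shared), so the split between them is uncertain. Oas1g fell by 0.59, 1.17 and 0.77 on the log2 scale with Baf A1, siAtg5 and CLA, Oas3 by 0.37, 0.16 and 0.96, and Oasl2 by 0.69, 0.53 and 0.84. The siAtg5 change of Oas3 was -0.01 (adjusted p = 0.874) with quantile normalization.

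Among effectors that act on nucleotides, RNA and membranes, Rsad2 (viperin, chromosome 12, 26442746 to 26456452), which makes a chain-ending nucleotide, gave some of the largest changes of the set. It was at 1499.8, 1426 and 1452 FPKM with LPS, at 389.6, 359.9, 459.5, 411 and 408 FPKM with Baf A1, and at 122, 126 and 154 FPKM in the lowest, median and highest CLA library. LPS+dNC libraries held 1948, 1435 and 1733 FPKM and siAtg5 libraries 255, 253, 271, 267 and 205 FPKM. Groups did not overlap in any of the 3 comparisons, and the means were 72.2% (Baf A1), 85.3% (siAtg5) and 91.1% (CLA) lower. The log2 changes were -1.85 (SE 0.096, limma adjusted p = 4.48e-13), -2.76 (SE 0.096, 5.06e-17) and -3.48 (SE 0.093, 3.64e-18).

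Cmpk2, a mitochondrial nucleotide kinase gene that lies beside Rsad2 on chromosome 12 (26469204 to 26479837), fell by 1.44, 2.18 and 3.12 on the log2 scale with Baf A1, siAtg5 and CLA. Isg20, an RNA exonuclease, fell by 0.68, 1.83 and 1.13.

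Bst2 (tetherin, chromosome 8, 71534255 to 71537456) holds budding virus at the cell surface, and it was the exception of this group. It was at 875, 977 and 1090.2 FPKM with LPS and at 1138, 1162, 1174, 1163 and 1103 FPKM with Baf A1, all above LPS (log2 change 0.23, SE 0.066, limma adjusted p = 0.00421). The CLA libraries, with a lowest, median and highest of 1025, 1175 and 1269 FPKM, overlapped LPS (0.26, SE 0.063, adjusted p = 0.00113). The rise with Baf A1 missed the threshold once LPS replicate 1 was left out (0.15, adjusted p = 0.0641) or with quantile normalization (0.1, adjusted p = 0.262), and the CLA call with median-of-ratios scaling (0.12, adjusted p = 0.139). With LPS+dNC, in contrast, Bst2 was at 1997, 1939 and 1953 FPKM, and with siAtg5 it was at 805, 876, 817, 927 and 824 FPKM (-1.21, SE 0.066, adjusted p = 1.15e-13). Its promoter holds 2 overlapping matches to the response element letters, as those of Oas1a and Oas1g do.

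ISG15 is a ubiquitin-like protein that is attached to other proteins (by Herc6 in the mouse) and removed by USP18, while Trim25 and Trim30a are ubiquitin ligases and Parp9, Parp14 and Dtx3l act through ADP-ribose and ubiquitin. All 8 genes fell in each comparison, with median log2 changes of -0.63 (Baf A1), -0.65 (siAtg5) and -0.85 (CLA). Isg15 (chromosome 4, 156199424 to 156200818) was at 928, 1011 and 976 FPKM with LPS and at 809, 734, 836, 784 and 757 FPKM with Baf A1, a 19.3% lower mean (log2 change -0.31, SE 0.064, limma adjusted p = 0.000258). In the lowest, median and highest CLA library it was at 528, 553 and 589 FPKM (-0.8, SE 0.062). With LPS+dNC it was at 1982, 1568 and 1607 FPKM, well above LPS alone, and with siAtg5 at 704, 726, 719, 745 and 650.3 FPKM (-1.27, SE 0.064, adjusted p = 3.19e-14). All treated libraries were below their controls, and the siAtg5 fall is measured from a control that was itself 0.82 (log2, SE 0.072) above LPS.

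Parp14 (chromosome 16, 35832874 to 35871544) was at 252, 245 and 177 FPKM with LPS, at 120.4, 112, 118, 116 and 118 FPKM with Baf A1 (log2 change -0.92, SE 0.098), and at 102, 109.5 and 146 FPKM in the lowest, median and highest CLA library (-0.96, SE 0.094). Its siAtg5 libraries at 126, 117, 129, 125 and 121 FPKM were just below LPS+dNC at 137, 151 and 155 FPKM (-0.25, SE 0.098, limma adjusted p = 0.0216). That last call was lost without LPS+dNC replicate 2 (adjusted p = 0.0648), without LPS+dNC replicate 3 (adjusted p = 0.0861), with the replicate block (adjusted p = 0.0518) and with quantile normalization (adjusted p = 0.188). Dtx3l (chromosome 16, 35926511 to 35939151) was at 98.9, 94 and 80.2 FPKM with LPS and at 40.5, 43.1 and 47.7 FPKM in the lowest, median and highest CLA library (-1.06, SE 0.056). It was at 53.6, 51.3, 56.2, 53.9 and 56.8 FPKM with Baf A1 (-0.73), at 81.2, 78.4 and 84.2 FPKM with LPS+dNC and at 56.2, 55.8, 57.3, 56.7 and 55.8 FPKM with siAtg5 (-0.52). Groups were apart in all 3 comparisons for both genes. Dtx3l overlaps the start of Parp9 (35938470 to 35972605) on the other strand, and without a statement that strand was used in counting, reads of the overlap cannot be told apart. Parp9 fell by 0.53, 0.2 and 0.62 on the log2 scale with Baf A1, siAtg5 and CLA, Usp18 by 0.39, 1.03 and 0.72, Herc6 by 0.75, 0.78 and 0.91, Trim25 by 0.42, 0.42 and 0.9, and Trim30a by 0.73, 0.82 and 0.72.

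Nucleic acid sensors detect viral or misplaced RNA and DNA. Among the 6, the RNA helicase genes Ifih1 (MDA5) and Ddx60 fell 2-fold or more in all 3 comparisons, while Dhx58 (LGP2) and Zbp1 moved little. Ddx60 (chromosome 8, 61928087 to 62038244) was at 70.9, 67.9 and 53.3 FPKM with LPS, at 29.1, 25, 29.9, 30.4 and 27.5 FPKM with Baf A1, and at 18.4, 20.5 and 22 FPKM in the lowest, median and highest CLA library. It was at 71, 66.4 and 74.3 FPKM with LPS+dNC and at 35.5, 33.4, 34.2, 32.1 and 30.2 FPKM with siAtg5. Each treated group was wholly below its control, with log2 changes of -1.14 (Baf A1, SE 0.08), -1.07 (siAtg5, SE 0.08) and -1.59 (CLA, SE 0.077), all with limma adjusted p at or below 5.58e-11.

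Ifi204 (chromosome 1, 173747293 to 173766943), a DNA sensor of the HIN-200 family and the most abundant of the 6, was at 702, 633 and 737 FPKM with LPS and at 385, 340.4, 389, 367 and 382 FPKM with Baf A1 (log2 change -0.89, SE 0.061). It was at 334, 350.3 and 386 FPKM in the lowest, median and highest CLA library (-0.96, SE 0.059), at 688, 661 and 762 FPKM with LPS+dNC and at 494, 466, 503, 464 and 438 FPKM with siAtg5 (-0.57, SE 0.061). Groups did not overlap, but 20.0% of its 50-base words occur in other genes, so its level is uncertain. Ifih1 fell by 1.05, 1.04 and 1.19 on the log2 scale with Baf A1, siAtg5 and CLA, Ddx58 (RIG-I) by 0.43, 0.35 and 0.73, and Zbp1 by 0.29, 0.3 and 0.2. Dhx58 changed by -0.09 with Baf A1 (limma adjusted p = 0.0624, groups overlapping), by -0.15 with siAtg5 (adjusted p = 0.00163) and by -0.32 with CLA. With quantile normalization the siAtg5 calls of Zbp1 (adjusted p = 0.206) and Dhx58 (adjusted p = 0.0652) were lost. The Baf A1 change of Dhx58 passed when LPS replicate 3 (-0.11, adjusted p = 0.0334) or LPS+Baf A1 replicate 4 (-0.11, adjusted p = 0.035) was left out, among other settings.

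The set holds 3 transcription factors of the pathway. Stat2 (chromosome 10, 128270559 to 128292849) was at 249, 249 and 217 FPKM with LPS, at 136, 135, 151, 141 and 141 FPKM with Baf A1, and at 107, 110.4 and 113 FPKM in the lowest, median and highest CLA library. It was at 301, 281 and 282 FPKM with LPS+dNC and at 136, 137, 145, 142 and 129 FPKM with siAtg5. The treated groups were far below both controls, by -0.75 (Baf A1, SE 0.049), -1.06 (siAtg5, SE 0.049) and -1.1 (CLA, SE 0.048) on the log2 scale.

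Irf7 (chromosome 7, 141262706 to 141266481), which amplifies interferon production, stayed abundant in every group. It was at 1459, 1481 and 1624 FPKM with LPS and at 1347, 1391, 1431, 1414 and 1403 FPKM with Baf A1, which did not overlap but missed the threshold (log2 change -0.12, SE 0.052, limma adjusted p = 0.0519, mean 8.14% lower). It passed under 6 other settings, among them quantile normalization (-0.25, adjusted p = 0.000148), median-of-ratios scaling (-0.18, adjusted p = 0.0429) and with LPS replicate 1 left out (-0.15, adjusted p = 0.039). In the lowest, median and highest CLA library it was at 1034, 1081 and 1264 FPKM (-0.46, SE 0.051), with LPS+dNC at 2096, 1984 and 2004 FPKM, and with siAtg5 at 1181, 1189, 1193, 1133 and 1115 FPKM (-0.8, SE 0.052, adjusted p = 2.78e-12). Its mean was 42.7% lower in the siAtg5 comparison. Irf9, which gives the complex with Stat2 its DNA binding, fell by 0.52, 0.33 and 0.31 on the log2 scale with Baf A1, siAtg5 and CLA.

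**Figure D3:**
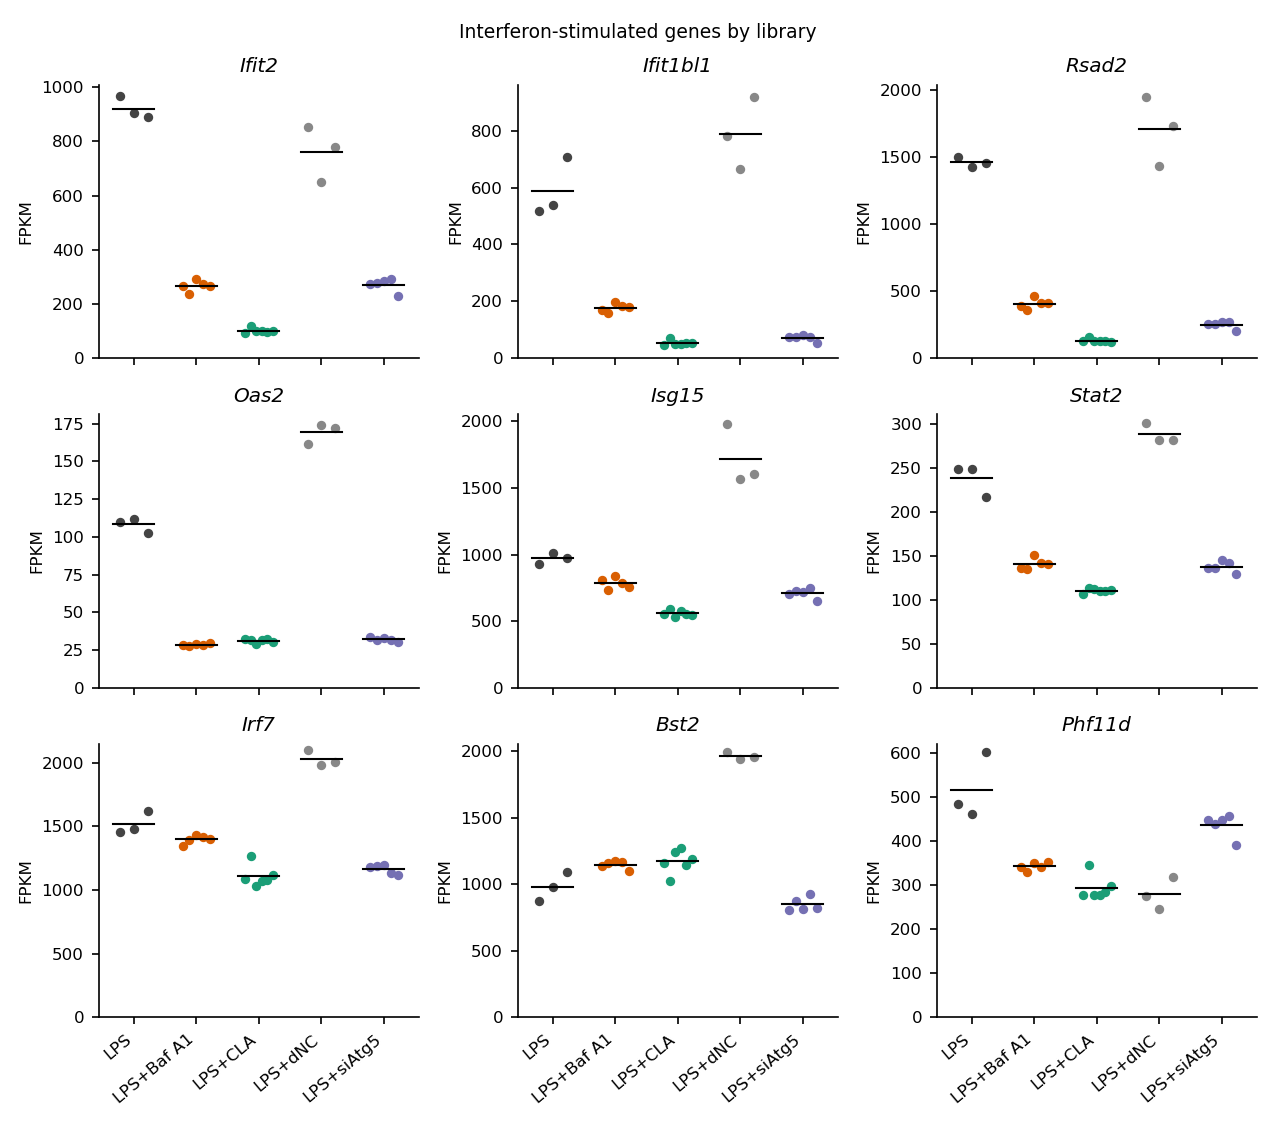
FPKM (y axes, from 0) of 9 interferon-stimulated genes in each of the 22 libraries, by group (x axes). Points are libraries and lines are group means. Ifit2, Ifit1bl1, Rsad2, Oas2, Isg15 and Stat2 are lower in all 3 treated groups, Irf7 is close to LPS with Baf A1, Bst2 is higher with Baf A1 and CLA, and Phf11d is lowest in an LPS+dNC library.

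Of 6 further induced genes, Phf11c (chromosome 14, 59380833 to 59395381), a zinc finger gene, was the least abundant and fell far in all 3 comparisons. It was at 8.51, 9.22 and 10.3 FPKM with LPS, at 1.02, 0.74, 1.17, 1.21 and 1.31 FPKM with Baf A1, and at 0.76, 1.02 and 1.28 FPKM in the lowest, median and highest CLA library. It was at 8.93, 9.93 and 8.22 FPKM with LPS+dNC and at 1.38, 1.53, 1.18, 1.42 and 1.16 FPKM with siAtg5. The treated groups were thus near 1 FPKM, and the log2 changes of -2.31, -2.1 and -2.37 (Baf A1, siAtg5, CLA; SE 0.1, 0.1 and 0.097), taken after adding 1 FPKM, understate the ratio.

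Its neighbour Phf11d (59347407 to 59365470) behaved otherwise. It was at 484, 461 and 602 FPKM with LPS, at 339.8, 329, 349, 341 and 352 FPKM with Baf A1 (log2 change -0.58, SE 0.084), and at 277, 281 and 345 FPKM in the lowest, median and highest CLA library (-0.81, SE 0.082). The LPS+dNC libraries at 276, 246 and 317 FPKM were below all siAtg5 libraries at 447, 439, 447, 455 and 391 FPKM, so the gene rose with siAtg5 (0.64, SE 0.084, limma adjusted p = 3.25e-07). Against LPS, however, the siAtg5 libraries were lower (-0.24, SE 0.084, adjusted p = 0.015), since LPS+dNC itself was 0.88 below LPS on the log2 scale (change -0.88, SE 0.094).

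Xaf1 (chromosome 11, 72301629 to 72313733), a pro-apoptotic gene, was also above LPS+dNC with siAtg5. It was at 190.2, 202 and 226 FPKM with LPS, at 162, 158, 175, 154 and 168 FPKM with Baf A1 (log2 change -0.33, SE 0.059), and at 141, 149 and 154 FPKM in the lowest, median and highest CLA library (-0.46, SE 0.057). The siAtg5 libraries at 187, 181, 188, 196 and 171 FPKM lay above LPS+dNC at 165, 144 and 168 FPKM (0.21, SE 0.059, limma adjusted p = 0.00204). That rise is below the median of all tested genes (0.34), and with median-of-ratios scaling it was -0.11 (adjusted p = 0.193). Ifi44 fell by 1.32, 0.74 and 2.21 on the log2 scale with Baf A1, siAtg5 and CLA, Ifi35 by 0.34, 0.74 and 0.47, and the chaperone gene Rtp4 by 0.46, 0.6 and 0.54.

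The Baf A1 and siAtg5 comparisons have no library in common, so the difference between them could be tested. Taking the Baf A1 change minus the siAtg5 change, 13 of the 39 genes were higher and 14 lower (20.4% and 52.3% of tested genes, whose median difference was -0.3). With median-of-ratios scaling, 21 were higher and 5 lower (31.1% and 38.7% of tested genes), and with quantile normalization 12 and 17 (34.9% and 33.4%), so the contrast with all genes depends on the scaling. Differences of 1 or more on the log2 scale were found for 4 genes: Ifit1bl1 (1.73, SE 0.2, limma adjusted p = 1e-07), Bst2 (1.44, SE 0.093, 6.96e-12), Isg20 (1.16, SE 0.13, 7.19e-08) and Phf11d (-1.23, SE 0.12, 6.03e-09). All 4 effectors, Rsad2, Cmpk2, Isg20 and Bst2, were lower with siAtg5 in this test, against 20.4% of tested genes. The difference includes the offset of LPS+dNC from LPS. That offset was a called rise for Isg20 and Bst2 (Bst2 1.01 on the log2 scale) and was -0.88 for Phf11d. Against LPS alone, the log2 changes of the 4 effectors with siAtg5 ran from -2.54 to -0.2 (Bst2). In the IFIT group 4 of 6 genes (Ifit2, Ifit3, Ifit3b and Eif2ak2) fell more with Baf A1, near the 52.3% of tested genes. The median difference of this group was -0.38, beside -0.3 for all tested genes. Among the 6 sensors, Ifi204 passed the test (-0.32, SE 0.087), close to the median of all tested genes. Among tested genes, 5.03% were called at 1 or higher and 17.8% at -1 or lower. The astrocyte markers summed to 18.6 to 22.2 FPKM with Baf A1 against 9.3 to 14.2 FPKM with LPS, mostly through Gja1 (means of 11.2 against 3.37 FPKM). Of 13 tested astrocyte markers, 4 rose and 1 (Aqp4) fell with Baf A1, and their part in the difference was not tested.

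**Figure D4:**
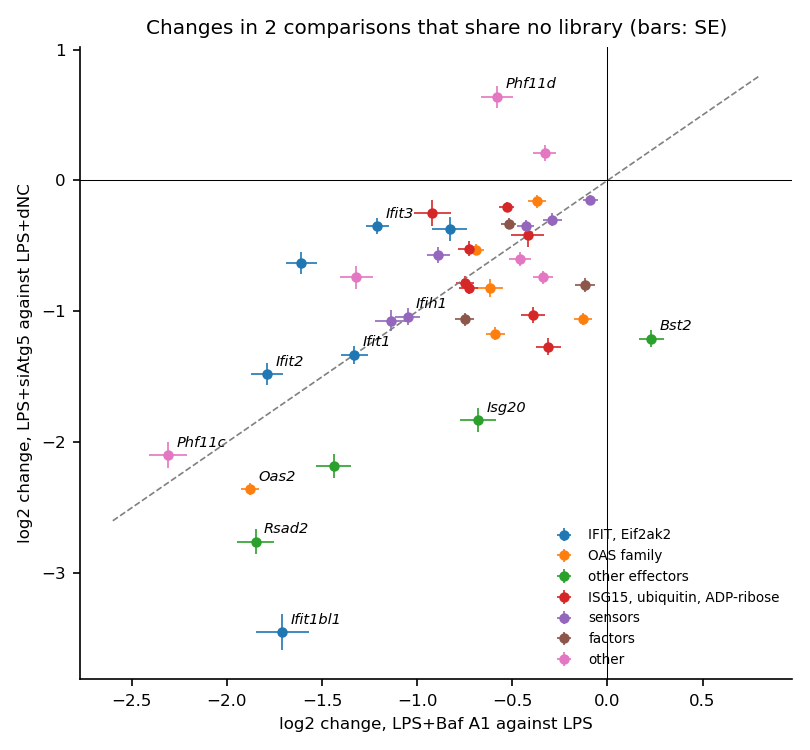
Log2 change with siAtg5 against LPS+dNC (y axis) against the log2 change with Baf A1 against LPS (x axis) for the 39 genes, with standard errors and colours by role. The dashed line marks equal changes. Most genes are at the lower left, below 0 in both, with Bst2 to the right of 0 and Phf11d and Xaf1 above 0.

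The choice of control bears on the siAtg5 result. Against LPS alone, all 39 genes were lower with siAtg5 (limma, adjusted p under 0.05; 15.6% of tested genes fell, 34.6% with median-of-ratios scaling), with a median log2 change of -0.68 beside 0.31 for all tested genes, and in 36 the libraries did not overlap (13.6% of tested genes). Falls of 2-fold or more were fewer from this control, at 7 of the 39 genes against LPS and 16 against LPS+dNC. No sensor gene was among the 7, and their share over all tested genes is not given here. LPS+dNC against LPS gave 15 higher and 12 lower genes (29% and 28.1% of tested genes) and a median of -0.02. The rises included Bst2 (1.01, SE 0.073), Isg20 (0.89), Isg15 (0.82), Oas1a (0.7) and Oas2 (0.64). The falls included Phf11d (-0.88), Parp14 (-0.59), Ifit3 (-0.43) and Dhx58 (-0.38). These shares are near the background, and the genes that fell numbered 20 with quantile normalization and 7 in a fit of these groups alone.

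CLA and Baf A1 were compared directly, at 50 nM and 10 nM, without LPS libraries entering the difference. Of the 39 genes, 29 were lower with CLA and 3 higher (19% and 35.4% of tested genes), with a median log2 difference of -0.23 beside 0.06 for all tested genes. The largest differences were Ifit1bl1 (-1.72, SE 0.12), Cmpk2 (-1.69, SE 0.077), Rsad2 (-1.63, SE 0.079), Ifit2 (-1.39, SE 0.072) and Oasl1 (-1.25, SE 0.057), and all 5 were without overlap. A difference of -1 or less was called in 1.67% of tested genes. The 3 genes higher with CLA were Oas2 (0.11, limma adjusted p = 0.0156), Irf9 (0.21) and Eif2ak2 (0.21). With median-of-ratios scaling 1 of the 39 genes was higher and 31 were lower (26.4% and 25.2% of tested genes). The doses differ, so the comparison is of these 2 cultures and not of potency.

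The Ifnb1 mRNA of these cultures, taken after 24 h of LPS, did not run with the 39 genes in all groups. Interferon protein is not analysed here, and the part of interferon beta in the changes of these genes was not tested. Ifnb1 (chromosome 4, 88522025 to 88522774) was at 3.91, 3.69 and 5.07 FPKM with LPS, at 0.9, 1.07, 1.33, 1.04 and 1.08 FPKM with Baf A1, and at 0.19, 0.495 and 0.75 FPKM in the lowest, median and highest CLA library. The log2 changes against LPS were -1.32 (SE 0.13, limma adjusted p = 9.06e-09) and -1.81 (SE 0.12, 1.66e-11). In LPS+dNC, where the summed share of the 39 genes was close to that with LPS, Ifnb1 was at 0.35, 0 and 0.17 FPKM (-2.16 against LPS, SE 0.14). Ifnb1 was higher than in LPS+dNC in every siAtg5 library, at 0.75, 0.67, 1.09, 1.27 and 0.77 FPKM. Each of these was below every LPS library. Its change with siAtg5 against LPS+dNC was 0.7 (SE 0.13, limma adjusted p = 2.62e-05), and with quantile normalization it was -0.06 (adjusted p = 0.688). Ifna4, an interferon alpha gene, was listed at 0 in every library but 1 of LPS+CLA, at 0.15 FPKM.

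The receptor genes moved less than their targets with Baf A1 and CLA. Ifnar1 was at 55.8, 57.9 and 45.5 FPKM with LPS and at 60.8, 61, 60.1, 59 and 62.1 FPKM with Baf A1 (log2 change 0.2, SE 0.067, limma adjusted p = 0.016), a call lost without LPS replicate 3 (0.09, adjusted p = 0.216). Ifnar2 was at 95.1, 93.8 and 101 FPKM with LPS, at 112, 109, 109, 104 and 107 FPKM with Baf A1 (0.16, SE 0.042, lost with median-of-ratios scaling at 0.1, adjusted p = 0.123, and quantile normalization at 0.1, adjusted p = 0.0749) and at 90.3, 94.9 and 102 FPKM in the lowest, median and highest CLA library (-0.02, SE 0.041, adjusted p = 0.681). With median-of-ratios scaling that CLA change was -0.16 (adjusted p = 0.0107). Ifnar2 was highest with LPS+dNC, at 194, 196 and 199 FPKM, and at 104, 104, 101, 96.1 and 105 FPKM with siAtg5 (-0.94, SE 0.042), which is close to LPS. The receptor kinase gene Tyk2 had mean levels of 34.7 FPKM with LPS, 49.1 FPKM with Baf A1, 26.2 FPKM with CLA, 50.5 FPKM with LPS+dNC and 31.8 FPKM with siAtg5.

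Downstream, Irf1, a factor induced by interferons and by LPS, was at 199.5, 205 and 178 FPKM with LPS, at 66.5, 66.2, 75.1, 71.2 and 69.8 FPKM with Baf A1 (-1.46, SE 0.066) and at 39.1, 42.8 and 50 FPKM in the lowest, median and highest CLA library (-2.15, SE 0.064). It was at 107, 102 and 95.3 FPKM with LPS+dNC and at 62.5, 68, 67.7, 62 and 62.7 FPKM with siAtg5 (-0.64, SE 0.066). Irf1 libraries did not overlap in any of these comparisons.

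**Figure D5:**
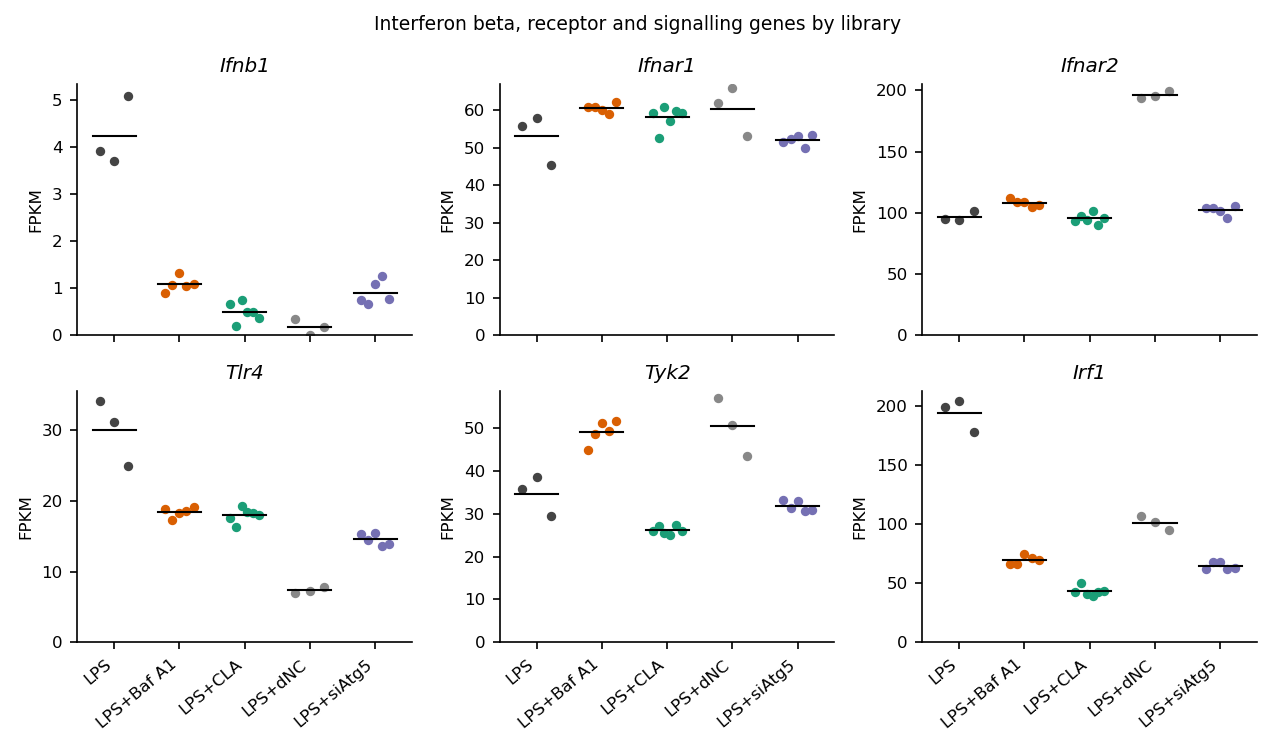
FPKM (y axes, from 0) of Ifnb1, its receptor genes Ifnar1 and Ifnar2, the LPS receptor gene Tlr4, the kinase gene Tyk2 and Irf1 in each library, by group (x axes). Points are libraries and lines are group means. Ifnb1 and Tlr4 are lowest in LPS+dNC, where Ifnar2 is highest at 194 to 199 FPKM.

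Of 20 tested genes for interferons, their receptor and the signalling that leads to and from them, 5 rose and 10 fell with Baf A1, 6 rose and 13 fell with siAtg5, and 2 rose and 12 fell with CLA. Of all tested genes, 32.7%, 59.6% and 40.4% rose and 25.1%, 21.6% and 22.6% fell in these comparisons. Tlr4, the receptor of LPS, fell with Baf A1 and CLA (means of 18.4 and 18.0 FPKM against 30.1 FPKM) and rose with siAtg5 against LPS+dNC (14.6 against 7.37 FPKM). The adaptor gene Traf3 moved the same way (7.86 and 8.12 against 10.7 FPKM, and 13.6 against 6.36 FPKM). The siAtg5 mean of Tlr4 was below its LPS mean, and that of Traf3 was above its LPS mean. Ticam1, which encodes TRIF, was at means of 13.6 FPKM with Baf A1 and 13.4 FPKM with CLA against 10.9 FPKM with LPS. Mavs, the adaptor of the RNA sensors, rose with Baf A1 and siAtg5 (log2 changes of 0.3 and 0.61). With CLA both calls for a rise, Ticam1 and Mavs, were lost with median-of-ratios scaling (0.14 and 0.07, limma adjusted p = 0.187 and 0.309) and with quantile normalization (0.15 and 0.07, adjusted p = 0.117 and 0.296), and that of Mavs also when LPS replicate 1 was left out (adjusted p = 0.0567). Socs3, a feedback inhibitor of cytokine signalling, fell by 2.03 on the log2 scale with siAtg5 (93.5 against 386 FPKM).

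A second list held 49 tested interferon-stimulated genes that are not in the set of 39. With Baf A1, 2 of them rose and 41 fell, with siAtg5 2 rose and 43 fell, and with CLA 1 rose and 43 fell. Of all tested genes, 25.1%, 21.6% and 22.6% fell and 32.7%, 59.6% and 40.4% rose. Median log2 changes were -0.57, -0.92 and -0.89, beside 0.04, 0.34 and 0.09 for all tested genes. The siAtg5 falls of this list are measured from LPS+dNC, which was itself above LPS for part of the list. In LPS+dNC against LPS, 23 of the 49 rose and 10 fell (29% and 28.1% of tested genes), with a median log2 change of 0.13. Their levels summed to 40958 to 46720 FPKM with LPS+dNC, 21320 to 25244 FPKM with LPS and 14705 to 15924 FPKM with LPS+siAtg5. Against LPS alone, 2 rose and 44 fell with siAtg5 (61.2% and 15.6% of tested genes). Iigp1, an immunity-related GTPase, fell by 2.09, 1.88 and 3.74 on the log2 scale with Baf A1, siAtg5 and CLA, Ifi207 by 1.72, 0.97 and 1.65, Samd9l by 1.86, 1.07 and 1.7, and Ifi203 by 1.25, 1.0 and 1.7. Psmb9, an immunoproteasome subunit, was at a mean of 201 FPKM with LPS+dNC against 66.6 FPKM with LPS and 40.2 FPKM with siAtg5. Ifi27l2a fell by 2.67 on the log2 scale with siAtg5. Ifi27 rose in all 3 comparisons, from 4.69 FPKM with LPS to 7.86 FPKM with Baf A1 and 7.95 FPKM with CLA, and from 4.21 FPKM with LPS+dNC to 15.2 FPKM with siAtg5.

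Within this list, the enzymes that load ISG15 did not move together. Uba7, its activating enzyme, fell in all 3 comparisons (log2 changes of -0.26, -0.59 and -0.38 with Baf A1, siAtg5 and CLA). Ube2l6, its conjugating enzyme, rose with Baf A1, from 213, 221 and 227 FPKM to 278, 284, 289, 288 and 278 FPKM (log2 change 0.36, SE 0.043, limma adjusted p = 2.95e-07), and fell with siAtg5 (-0.44, SE 0.043). That siAtg5 fall is measured from LPS+dNC, where Ube2l6 was itself called higher than with LPS. Its fall with CLA missed the threshold when LPS replicate 3 was left out (-0.1, limma adjusted p = 0.0617).

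Set beside the promoter match, the 16 genes with a match had median log2 changes of -0.79 (Baf A1), -1.06 (siAtg5) and -1.03 (CLA), and the 15 with a window and no match had -0.68, -0.74 and -0.91. With CLA the changes ran from -3.48 to 0.26 with a match and from -3.18 to -0.31 without. Ifit2, with a fall of 3.18 on the log2 scale with CLA, has no match in its windows, and Bst2, which rose with CLA, has 2.

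Genes outside the set with the most similar pattern were sought by Pearson correlation of log2(FPKM + 1) with the mean of the 39 standardised genes. Over the 22 libraries these were Tgtp2 (r = 0.99), Gm12185 (0.987), Lgals8 (0.986), Ifi203 (0.986) and Slfn9 (0.985). The points share the group differences, so r mostly reads those. With group means removed they were Tgtp2 (r = 0.894), Aftph (0.892), Ifi209 (0.892), Gbp3 (0.888) and Iigp1 (0.881). Within the set, r over all libraries ran from 0.279 (Dhx58), 0.288 (Phf11d) and 0.354 (Bst2) to 0.997 (Ifit1), and with group means removed Bst2 was at -0.286.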

How the data were processed

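The values are FPKM, deposited by the authors as 1 table of 15726 lines (15725 symbols) and 22 single-library files identical to its columns, with the unit per the file headers. For 3 columns (LPS+dNC) the header gives no unit, and FPKM was read from their values. The submitters' processing notes name CASAVA 1.7, fastp 0.18.0, Bowtie2 2.2.8, HISAT2 and StringTie 1.3.1, while build, annotation and order of use are not given in the sources here. Of 2 lines for Plin2 the first was used.

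From these, log2(FPKM + 1) was fitted with 5 group means over 22 libraries in limma 3.58.1 (R 4.3.3), with trended, robust empirical Bayes variances on 17 residual degrees of freedom. The filter kept genes reaching 1 FPKM in 3 or more libraries, and p-values were Benjamini-Hochberg adjusted over all 11070 genes. Calls needed an adjusted p under 0.05. Fold changes are on the log2(FPKM + 1) scale and understate changes of low genes. The code was tested on simulated data. Positions and shared 50-base words came from GENCODE vM21 (GRCm38), and a share of 20% or more is reported. Promoters came from RefSeq.

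Values in every library are given for the most abundant gene of each role, the largest change of each role in each main comparison, and genes that moved against most others. Of the pathway lists, 6 genes fixed by name and up to 3 per direction with the smallest adjusted p were named, and 2 further genes of these lists are not reported here. Ifna4 was added after its values were seen. The genes and lists were chosen with earlier results of these data known. Alternatives were another pseudocount (0.1), no filter, a filter of 5 FPKM, 2 normalizations, array weights, separate fits, a replicate block, plain empirical Bayes, and leaving out libraries or genes that share sequence.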

Additional observations from a re-analysis of the deposited data

Results flagged for a closer look

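In groups of 5 or 6 libraries, 18 of 117 sets of values (15.4%) had 1 library set apart from its group by Dixon's test at 95%, which chance does for about 1 in 20. Of these, 14 were in LPS+CLA, and in each the high library was replicate 2. Its values in FPKM were 217.42 for Ifit1, 118.16 for Ifit2, 90.54 for Ifit3b, 70.71 for Ifit1bl1 and 153.91 for Rsad2. They were 144.82 for Oas3, 209.85 for Oasl2, 309.15 for Usp18, 1264.33 for Irf7 and 127.24 for Ddx58. They were 74.94 for Ifih1, 9.19 for Ifi44, 145.79 for Parp14 and 344.53 for Phf11d. The 39 genes are not independent of one another within a library. In LPS+siAtg5, replicate 5 was the low library for Ifit3 (640.6), Ifit3b (164.23), Rsad2 (205.38) and Phf11d (390.64).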

How the results depend on the processing

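Leaving out each library in turn, the genes that fell numbered 35 to 37 with Baf A1, 36 to 37 with siAtg5 against LPS+dNC and 38 in every case with CLA. Those that rose numbered 0 to 1 (0 without LPS replicate 1), 2 and 1. The ranges were 13 to 16 higher and 10 to 14 lower for LPS+dNC against LPS, 36 to 39 lower for siAtg5 against LPS, 2 to 3 higher and 27 to 29 lower for CLA against Baf A1, and 13 to 15 higher and 12 to 15 lower for the Baf A1 change minus the siAtg5 change. With quantile normalization, 0 genes rose with Baf A1 and 20 fell in LPS+dNC against LPS. In a fit of those groups alone 7 fell. With median-of-ratios scaling, 1 gene rose with siAtg5, 0 with CLA and 1 in CLA against Baf A1, and the Baf A1 change minus the siAtg5 change had 21 higher and 5 lower. Signs turned for Ifit3 (0.08) and Ifnb1 (-0.06) with siAtg5 under quantile normalization, for Xaf1 (-0.11) with siAtg5 and Ifnar1 (-0.0036) with CLA under median-of-ratios scaling, and for Ifnar2 with CLA (0.01 with array weights, without the 3 libraries that lie apart and without LPS replicate 3, within -0.04 to 0.01 when single libraries were left out). The cause was not tested. Without those 3 libraries, 37, 37 and 38 genes fell with Baf A1, siAtg5 and CLA. Same-numbered libraries deviated together with r of -0.13 to 0.15 across genes and the labels do not say what a number shares, so the numbers were not taken as pairs. With the replicate block, 35, 36 and 38 genes fell and 1, 2 and 1 rose in the 3 comparisons.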
